A study of Mus with 12 samples.

Results

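The glucocorticoid receptor gene Nr3c1 and 6 genes known as its targets, Tsc22d3, Fkbp5, Per1, Klf9, Sgk1 and Ddit4, were followed in mouse blood. They were selected by gene name from a table of 25247 genes, and all 7 were found. The samples were 12 blood RNA libraries from female BALB/c mice that were 6 weeks old at the start, with 3 libraries in each of 4 groups. The design text of the series names 12 mice for these 12 libraries, whereas the methods of the study describe larger groups, and neither says outright that each library is 1 mouse. The Solvent mice had their shaved back skin and right ear painted with vehicle alone, a mixture of acetone and olive oil. The DNCB mice received the hapten 2,4-dinitrochlorobenzene in that vehicle, at 1% to sensitise and at 0.5% to challenge, which produces an inflammation of the skin used as a model of atopic dermatitis. The scMSC mice received DNCB and, per dose, 2000000 human umbilical cord mesenchymal stem cells (MSC) in 100 µL beneath the skin beside the lesion. The scivMSC mice received DNCB and the same number of cells, with 50 µL beneath the skin and 50 µL into the tail vein. The MSC were human cells in mice with their own immune system, no group received MSC without DNCB, and no group received culture solution alone. Blood was taken on day 30.

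Glucocorticoids, corticosterone in the mouse, are released by the adrenal cortex under stress and enter cells freely. They bind the receptor encoded by Nr3c1, which then leaves its chaperones, moves to the nucleus and raises or lowers the transcription of its target genes. In blood, glucocorticoids are known to lower the number of circulating lymphocytes and to raise the number of neutrophils. The comparisons asked whether genes of this response differed in blood in which neutrophil markers were high and lymphocyte markers low. No hormone level was among the data used here.

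A level is given below in FPKM, fragments per kilobase of gene scaled to the size of the library, which allows genes of different length to be compared. A gene was called higher or lower when edgeR's quasi-likelihood test gave a Benjamini-Hochberg adjusted p under 0.05 over all tested genes and the fold change was over 2. The test covered the 5527 genes that reached 1 FPKM in 3 or more libraries, among them 6 of the 7 genes. Fkbp5 and Per1 passed this filter with 5 and 4 libraries, of which 3 and 2 were DNCB libraries and the others replicate 1 of the MSC groups, and Klf9 did not pass it. Neither Fkbp5 nor Per1 would have passed without the DNCB libraries. Libraries held 52.2e6 to 65.1e6 estimated counts, of which 78.4% to 89.0% belonged to haemoglobin genes. The scivMSC libraries held 5.84e6 to 8.17e6 counts outside haemoglobin, a range that overlaps scMSC, and the fewest genes at 1 FPKM or above, 1804 to 3140, against 4346 to 6371 genes in the Solvent libraries. The median log2 fold change of all tested genes was 0.06 in the comparison of DNCB with Solvent. Compared with DNCB it was -0.63 in scMSC and -1.53 in scivMSC. With trimmed mean of M values (TMM) scaling, which centres the bulk of genes, these medians were -0.09, 0.06 and 0.04. Values under TMM scaling, or the median of all tested genes, are therefore given beside changes of the 7 genes in the MSC groups. For single genes of the wider lists they are mostly not given, and those changes are to be read beside the medians above.

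Nr3c1, the receptor itself (ENSMUSG00000024431, chr18:39410545-39519421, minus strand), was present in all 4 groups and lowest in the scivMSC group. Its level was 2.64, 1.48 and 1.85 FPKM in the Solvent libraries and 2.51, 4.34 and 2.18 FPKM in the DNCB libraries. It was 1.54, 1.36 and 1.27 FPKM in the scMSC libraries and 0.267, 0.21 and 0.483 FPKM in the scivMSC libraries. Every scivMSC library lay below every other library, whereas the Solvent and DNCB libraries overlapped. For DNCB against Solvent the log2 fold change was 0.60 ± 0.37 (SE) with an adjusted p of 0.288 in edgeR. Nr3c1 fell in scMSC against DNCB, by 1.12 ± 0.38 on the log2 scale (adjusted p = 0.0354), and this change was not called under TMM scaling (-0.39, adjusted p = 0.329).

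In scivMSC the receptor transcript was 9.41-fold below DNCB in mean FPKM, 0.32 ± 0.144 against 3.01 ± 1.16 (SD, n = 3). Its log2 fold change was -3.23 ± 0.41 (adjusted p = 1.1e-05), which was 1.70 below the median of all tested genes, and only 9.41% of those genes had a lower value. Under TMM scaling the fall was 1.53 on the log2 scale (adjusted p = 0.000876) and was still called. Nr3c1 was also lower in scivMSC than in Solvent (-2.63 ± 0.40, adjusted p = 0.000165) and than in scMSC (-2.10 ± 0.39, adjusted p = 0.00815), and both were called under TMM scaling too (adjusted p = 0.00782 and 0.0128). In counts per library scaled to the total outside haemoglobin (CPM), Nr3c1 stood at 14.7, 15.6 and 33.1 in the scivMSC libraries and at 107, 83.1 and 96.6 in the Solvent libraries. The calls of the scivMSC group against the other 3 groups were made in all 12 fits that each left out 1 library.

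**Figure D1:**
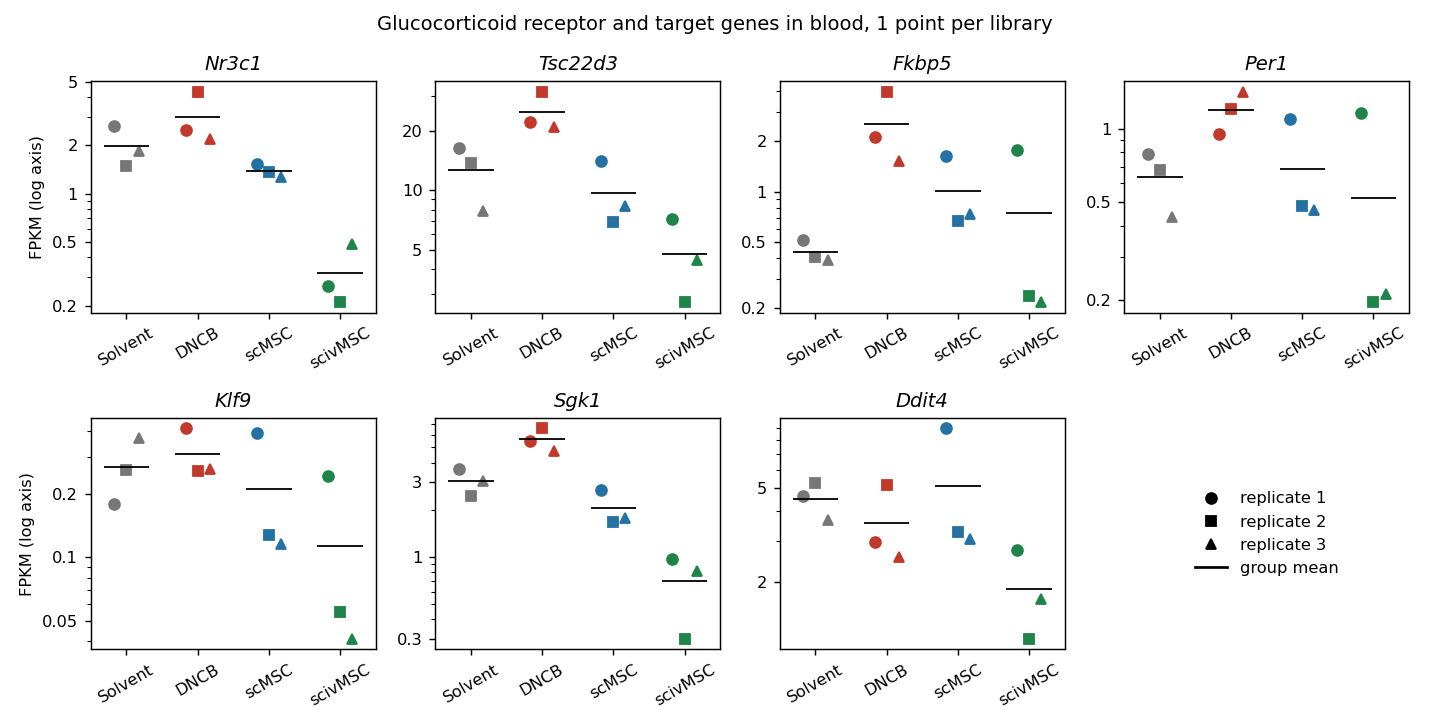
Level of each of the 7 genes in FPKM (log axis) in the Solvent, DNCB, scMSC and scivMSC libraries; each point is 1 library, its shape gives the replicate number and the bar is the group mean. Fkbp5 was higher in every DNCB library (1.53 to 3.98 FPKM) than in every Solvent library (0.39 to 0.512 FPKM), Nr3c1 was lowest in the 3 scivMSC libraries, and replicate 1 of scivMSC stood well above the other two for Fkbp5, Per1 and Klf9.

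Fkbp5 (ENSMUSG00000024222, chr17:28399094-28517527, minus strand) encodes a co-chaperone of the receptor that lowers its affinity for hormone, and it is among the most widely used transcripts for reading glucocorticoid exposure. It was the gene of the 7 with the largest difference between DNCB and Solvent. The Solvent libraries held 0.512, 0.406 and 0.39 FPKM and the DNCB libraries 2.14, 3.98 and 1.53 FPKM. The groups did not overlap, and the mean was 5.85-fold higher in DNCB. The log2 fold change was 2.54 ± 0.67 (adjusted p = 0.0117), and 5.23% of all tested genes had a higher one. Fkbp5 passed the filter only with its DNCB libraries, which favours a rise in DNCB, a high rank and a fall from DNCB. Under TMM scaling it was 2.32 ± 0.51 (adjusted p = 0.00284). The call was lost without DNCB replicate 2 (2.07, adjusted p = 0.0581), without Solvent replicate 2 (2.49, adjusted p = 0.0541) and without Solvent replicate 3 (2.47, adjusted p = 0.0516). The table holds predicted genes inside the Fkbp5 interval on the same strand, whose level was at most 0.0357 FPKM.

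In the MSC groups Fkbp5 was spread widely. The scMSC libraries held 1.64, 0.665 and 0.74 FPKM and the scivMSC libraries 1.78, 0.237 and 0.218 FPKM. Replicate 1 of each group thus lay within the range of the DNCB libraries, and the other scivMSC libraries lay below the Solvent range. Fkbp5 was called lower in scivMSC than in DNCB (-1.77 ± 0.65, adjusted p = 0.024), a change only 0.25 below the median of all tested genes, and it was not called under TMM scaling (-0.41, adjusted p = 0.5). Without scivMSC replicate 1 this fall was 3.48 on the log2 scale (adjusted p = 1.1e-05). Without DNCB replicate 2 (-1.30, adjusted p = 0.117), scivMSC replicate 2 (-1.35, adjusted p = 0.0502) or scivMSC replicate 3 (-1.34, adjusted p = 0.0874) it was not called. For scMSC against DNCB the change was -1.34 ± 0.64 (adjusted p = 0.132), which was 0.71 below the median of all tested genes.

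Compared with Solvent, Fkbp5 was higher in each scMSC library, although the change of 1.20 ± 0.65 was not called (adjusted p = 0.214). Under TMM scaling Fkbp5 was called higher than in Solvent in both MSC groups, by 1.69 ± 0.50 in scMSC (adjusted p = 0.0431) and by 1.91 ± 0.51 in scivMSC (adjusted p = 0.00717). With libraries scaled by total counts, the scivMSC value was 0.77 ± 0.64 (adjusted p = 0.296), and it was -0.94 without scivMSC replicate 1. The direction of the scivMSC difference from Solvent therefore rested on that library.

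Tsc22d3 (ENSMUSG00000031431, chrX:140539528-140600659, minus strand), which encodes the leucine zipper protein GILZ that restrains NF-kappaB and AP-1, was the most abundant of the 7 genes. Its level was 16.4, 13.7 and 7.87 FPKM in Solvent and 22.2, 31.6 and 20.8 FPKM in DNCB. The levels were 14.0, 6.92 and 8.35 FPKM in scMSC and 7.18, 2.72 and 4.46 FPKM in scivMSC. The DNCB libraries were above all others. The mean was 1.96-fold higher in DNCB than in Solvent, and the log2 fold change of 0.98 ± 0.38 was not called (adjusted p = 0.0797). Under TMM scaling the same difference, 0.83 ± 0.22, had an adjusted p of 0.00831, with a fold below the threshold of 2.

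Compared with DNCB, Tsc22d3 fell by 1.36 ± 0.38 in the scMSC group (adjusted p = 0.0142) and by 2.38 ± 0.39 in the scivMSC group (adjusted p = 8.99e-05). These values were 0.72 and 0.85 below the median of all tested genes on the log2 scale. The TMM values were -0.68 (adjusted p = 0.0289) and -0.83 (adjusted p = 0.00603), both short of a 2-fold change. The scMSC call was lost without DNCB replicate 2, scMSC replicate 2 or scMSC replicate 3, with adjusted p values up to 0.0831. Tsc22d3 was called lower in scivMSC than in Solvent (-1.40 ± 0.38, adjusted p = 0.00465), a difference that was 0.0031 under TMM scaling (adjusted p = 0.992). It was called lower in scivMSC than in scMSC (-1.02 ± 0.38, adjusted p = 0.0488), although these libraries overlapped. That last call held in 3 of the 12 fits with a library left out, and the adjusted p reached 0.241 without scMSC replicate 1.

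Sgk1 (ENSMUSG00000019970, chr10:21882184-21999893, plus strand) encodes a kinase of ion transport and cell survival that is induced by glucocorticoids and mineralocorticoids. It held 3.63, 2.45 and 3.03 FPKM in Solvent and 5.51, 6.62 and 4.72 FPKM in DNCB. It held 2.68, 1.66 and 1.78 FPKM in scMSC and 0.974, 0.3 and 0.818 FPKM in scivMSC. The DNCB libraries were again above all others and the scivMSC libraries below all others. The mean was 1.85-fold higher in DNCB than in Solvent, with a log2 fold change of 0.88 ± 0.39 that was not called (adjusted p = 0.118). Under TMM scaling that change was 0.71 ± 0.22 (adjusted p = 0.0198), below the fold threshold.

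Compared with DNCB, Sgk1 fell by 1.47 ± 0.39 with subcutaneous MSC alone (adjusted p = 0.0104) and by 2.99 ± 0.41 with both routes (adjusted p = 1.99e-05). Relative to the median of all tested genes the falls were 0.84 and 1.47 on the log2 scale, and 12.4% of tested genes were lower than Sgk1 in scivMSC. Under TMM scaling the scivMSC fall was called (-1.46, adjusted p = 0.000144), and the scMSC value of -0.79 (adjusted p = 0.0153) was short of a 2-fold change. The scMSC call was lost without scMSC replicate 2 (adjusted p = 0.062) or scMSC replicate 3 (adjusted p = 0.0529). Sgk1 was also called lower in scivMSC than in Solvent (-2.11 ± 0.40, adjusted p = 0.000454) and than in scMSC (-1.52 ± 0.39, adjusted p = 0.0147). Neither reached a 2-fold change under TMM scaling (-0.75 and -0.67), and the call against scMSC was lost without scMSC replicate 1 (-1.28, adjusted p = 0.0643).

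Per1 (ENSMUSG00000020893, chr11:69095217-69109960, plus strand) is a circadian clock gene that is also directly induced by the receptor. It held 0.787, 0.677 and 0.435 FPKM in Solvent and 0.952, 1.21 and 1.42 FPKM in DNCB. It held 1.10, 0.485 and 0.464 FPKM in scMSC and 1.16, 0.195 and 0.211 FPKM in scivMSC. Every DNCB library was above every Solvent library, and replicate 1 of both MSC groups reached the DNCB range. No contrast was called for Per1 and its F test over the 4 groups gave an adjusted p of 0.251. The log2 fold change was 0.92 ± 0.59 for DNCB against Solvent (adjusted p = 0.301) and -1.19 ± 0.60 for scivMSC against DNCB (adjusted p = 0.0845). The scivMSC value was 0.33 above the median of all tested genes. Under TMM scaling its sign turned, and it was 0.10 above the median. Without scivMSC replicate 1, Per1 was called lower in scivMSC than in DNCB (-2.56, adjusted p = 0.000152), Solvent (-1.64, adjusted p = 0.00469) and scMSC (-1.74, adjusted p = 0.00595). In that fit the medians of all tested genes were -1.97, -1.89 and -1.28 in the same contrasts. The time of day at which blood was taken is not given in the sources used here, and its part in the Per1 levels was not tested.

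Klf9 (ENSMUSG00000033863, chr19:23141226-23168134, plus strand), a transcription factor gene induced by glucocorticoids, was scarce, with 12 to 123 estimated counts per library. Its level was 0.179, 0.261 and 0.367 FPKM in Solvent and 0.41, 0.256 and 0.264 FPKM in DNCB. It was 0.389, 0.128 and 0.116 FPKM in scMSC and 0.243, 0.0552 and 0.0411 FPKM in scivMSC. Solvent and DNCB overlapped, and scivMSC lay below DNCB in each library. In the fit without a filter on low values, the log2 fold change was 0.21 ± 0.71 for DNCB against Solvent (adjusted p = 0.98) and -1.44 ± 0.73 for scivMSC against DNCB (adjusted p = 0.168). The median of all genes in that fit was -0.26 for DNCB against Solvent and -1.26 for scivMSC against DNCB. No contrast was called for Klf9 in that fit.

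Ddit4 (ENSMUSG00000020108, chr10:59949669-59951834, minus strand) encodes REDD1, an inhibitor of mTORC1 that responds to glucocorticoids, hypoxia and energy stress. It did not follow the pattern of the other genes. The Solvent libraries held 4.65, 5.26 and 3.66 FPKM, the DNCB libraries 2.96, 5.14 and 2.55 FPKM. The scMSC libraries held 8.98, 3.27 and 3.06 FPKM and the scivMSC libraries 2.74, 1.15 and 1.70 FPKM. Its mean was thus highest in scMSC, through replicate 1, and its DNCB mean lay below its Solvent mean, with overlapping libraries (-0.35 ± 0.46, adjusted p = 0.659). For scMSC against DNCB the log2 fold change was 0.51 ± 0.47 (adjusted p = 0.428). Under TMM scaling Ddit4 was called higher in scMSC than in DNCB (1.19 ± 0.33, adjusted p = 0.015).

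Ddit4 was called lower in scivMSC than in Solvent (-1.28 ± 0.47, adjusted p = 0.0259), and under TMM scaling that value was 0.09 (adjusted p = 0.843). It was called lower in scivMSC than in scMSC (-1.44 ± 0.47, adjusted p = 0.0322), and under TMM scaling that value was -0.53 (adjusted p = 0.236). The call against scMSC was lost without scMSC replicate 1 (-0.75, adjusted p = 0.254), scivMSC replicate 2 (-1.18, adjusted p = 0.0865) or scivMSC replicate 3 (-1.38, adjusted p = 0.0911). The call against Solvent was lost without Solvent replicate 1 or 2, or without scivMSC replicate 2 or 3, with adjusted p values up to 0.0727.

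Over the 4 groups, the edgeR F test was passed by Nr3c1 (adjusted p = 6.52e-05), Sgk1 (adjusted p = 0.000117), Tsc22d3 (adjusted p = 0.000478) and Fkbp5 (adjusted p = 0.0104), 4 of the 6 tested genes. Of all 5527 tested genes, 3997 passed it. Ddit4 had an adjusted p of 0.0572, and it passed under TMM scaling (adjusted p = 0.0374) and in DESeq2 (adjusted p = 0.0188). Nr3c1, Tsc22d3, Klf9 and Sgk1 shared 1 order of group means, DNCB, Solvent, scMSC and scivMSC. Among neighbours in that order, DNCB and Solvent did not overlap for Tsc22d3 and Sgk1, scMSC and scivMSC did not overlap for Nr3c1 and Sgk1, and Solvent and scMSC overlapped for each of these genes. Fkbp5 ran in the order DNCB, scMSC, scivMSC and Solvent, Per1 in the order DNCB, scMSC, Solvent and scivMSC, and Ddit4 in the order scMSC, Solvent, DNCB and scivMSC. All neighbours in these 3 orders overlapped.

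**Figure D2:**
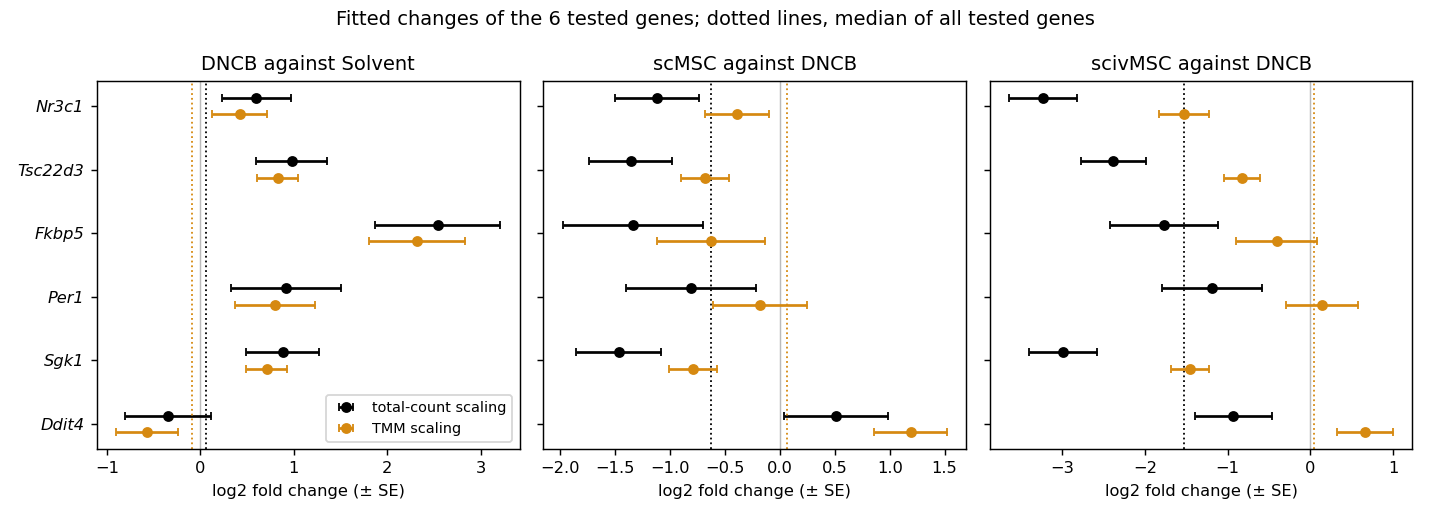
Log2 fold change (point) with its standard error (bar) of the 6 tested genes in 3 comparisons, with libraries scaled by total counts (black) or by TMM (orange); dotted lines mark the median of all tested genes at each scaling. Fkbp5 stood highest for DNCB against Solvent at 2.54, Nr3c1 and Sgk1 lay furthest below the median for scivMSC against DNCB, and Ddit4 lay above the median in both MSC comparisons.

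For DNCB against Solvent, 1 of the 6 tested genes was called higher (Fkbp5) and 0 lower, where 15.6% of all tested genes were called higher and 4.87% lower. The median of the 6 was 0.90 on the log2 scale. Across all 7 genes, 4 (Fkbp5, Tsc22d3, Sgk1 and Per1) had DNCB libraries that were all above the Solvent libraries, and 25.0% of all tested genes did so, with 16.5% in the other direction. Under TMM scaling Fkbp5 was again the 1 gene called, where 27.6% of all tested genes were called in either direction. The share of the genes called was close to that of all genes.

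For scMSC against DNCB, 3 of the 6 genes (Nr3c1, Tsc22d3 and Sgk1) were called lower and 0 higher, beside 24.9% and 1.27% of all tested genes. These 3 also had scMSC libraries all below the DNCB libraries, as had 49.8% of all tested genes, while 5.54% lay all above. Under TMM scaling 1 of the 6 was called, Ddit4 and in the higher direction, beside 21.1% of all tested genes in either direction. None of the 6 tested genes kept its scMSC call in both scalings.

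For scivMSC against DNCB, 4 of the 6 genes (Nr3c1, Fkbp5, Tsc22d3 and Sgk1) were called lower and 0 higher, beside 62.0% and 1.43% of all tested genes. Of the 7 genes, 4 (Nr3c1, Tsc22d3, Klf9 and Sgk1) had scivMSC libraries all below the DNCB libraries, as had 67.9% of all tested genes, while 5.41% lay all above. Under TMM scaling Nr3c1 and Sgk1, 2 of the 6, were called lower, beside 39.4% of all tested genes in either direction (1137 higher and 1043 lower). The 4 called genes were thus a share close to that of all genes, and the median of the 6, -2.08, compared with -1.53 over all tested genes.

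Against Solvent, 0 of the 6 genes were called in scMSC, beside 0.326% of all tested genes higher and 0.326% lower. At an unadjusted p under 0.05 there were 1565 such genes among all tested, against 36 called. Under TMM scaling Fkbp5 was called there, as it was with DESeq2, beside 8.5% of all genes. In scivMSC against Solvent, 4 of the 6 (Nr3c1, Tsc22d3, Sgk1 and Ddit4) were called lower and 0 higher, beside 59.2% and 2.59% of all tested genes. Under TMM scaling Nr3c1 was called lower and Fkbp5 higher, beside 35.8% of all genes. Between the MSC groups the same 4 genes were called lower in scivMSC than in scMSC and 0 higher, beside 30.4% and 0.344% of all tested genes. Under TMM scaling Nr3c1 alone was called, beside 18.0%. These comparisons share their DNCB, Solvent or scMSC libraries and are not independent of each other.

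The leukocyte markers in the same libraries moved as follows, where 15.6% of all tested genes were called higher and 4.87% lower in DNCB against Solvent. All 11 neutrophil markers rose in DNCB against Solvent, with a median log2 fold change of 5.72, and their summed level was 218 to 441 FPKM in Solvent and 7040 to 11100 FPKM in DNCB. Of the T cell markers 8 of 9 fell (median -1.54), from 83.2 to 139 FPKM in Solvent to 33.3 to 43.2 FPKM in DNCB. All 8 B cell markers fell (median -2.12), from 45.4 to 146 FPKM to 12.7 to 35.6 FPKM. Trbc2, a T cell receptor chain, held 66.9, 38.1 and 38.2 FPKM in Solvent and 17.2, 17.7 and 16.4 FPKM in DNCB. S100a9, which encodes a subunit of calprotectin, held 238, 279 and 132 FPKM in Solvent and 3790, 5930 and 3830 FPKM in DNCB. None of the markers was at 0 in every library. In whole blood, fewer cells of a type and less RNA per cell cannot be told apart.

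Of the other blood cell lists in DNCB against Solvent, 2 of 5 tested monocyte markers, 3 of 6 platelet markers and 1 of 3 eosinophil and basophil markers rose. Of the NK cell markers 2 of 3 tested fell, and 0 of 5 tested erythroid markers changed, with a median of 0.02. The shares of all tested genes were 15.6% higher and 4.87% lower. In both MSC groups all 11 neutrophil markers fell against DNCB under either scaling, with summed levels of 581 to 720 FPKM in scMSC and 252 to 752 FPKM in scivMSC. With libraries scaled by total counts 24.9% and 62.0% of all tested genes fell there, and under TMM scaling 681 and 1043 of 5527. The B cell markers did not return to the Solvent level, since 5 of 8 were called lower in scMSC than in Solvent and 8 of 8 in scivMSC. For the T cell markers these counts were 0 of 9 and 9 of 9, and 4 of 9 for scivMSC under TMM scaling. Of all tested genes 0.326% and 59.2% were called lower in these contrasts, and 741 of 5527 for scivMSC under TMM scaling.

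The 7 genes were also set against these markers as ratios within each library. Per 1000 FPKM of summed neutrophil markers, each of the 7 genes was lower in every DNCB library than in every Solvent library, as were 97.9% of all tested genes. Fkbp5, for example, stood at 1.32, 0.922 and 1.79 in Solvent and at 0.304, 0.36 and 0.214 in DNCB. Per 100 FPKM of summed T and B cell markers, each of the 7 genes was higher in every DNCB library than in every Solvent library, as were 85.9% of all tested genes. Fkbp5 stood at 0.179, 0.258 and 0.303 in Solvent and at 3.72, 5.05 and 3.32 in DNCB on that scale. Both denominators changed strongly between the groups, and the 7 genes do not stand apart from the other genes on these scales. DNCB replicate 2 had the highest FPKM of its group for Nr3c1, Tsc22d3, Fkbp5, Sgk1 and Ddit4. It also had the highest neutrophil, T cell, B cell, NK cell, monocyte and platelet sums of its group and the most counts outside haemoglobin, 12.9e6. The part of cell composition in the levels of the 7 genes was not tested.

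**Figure D3:**
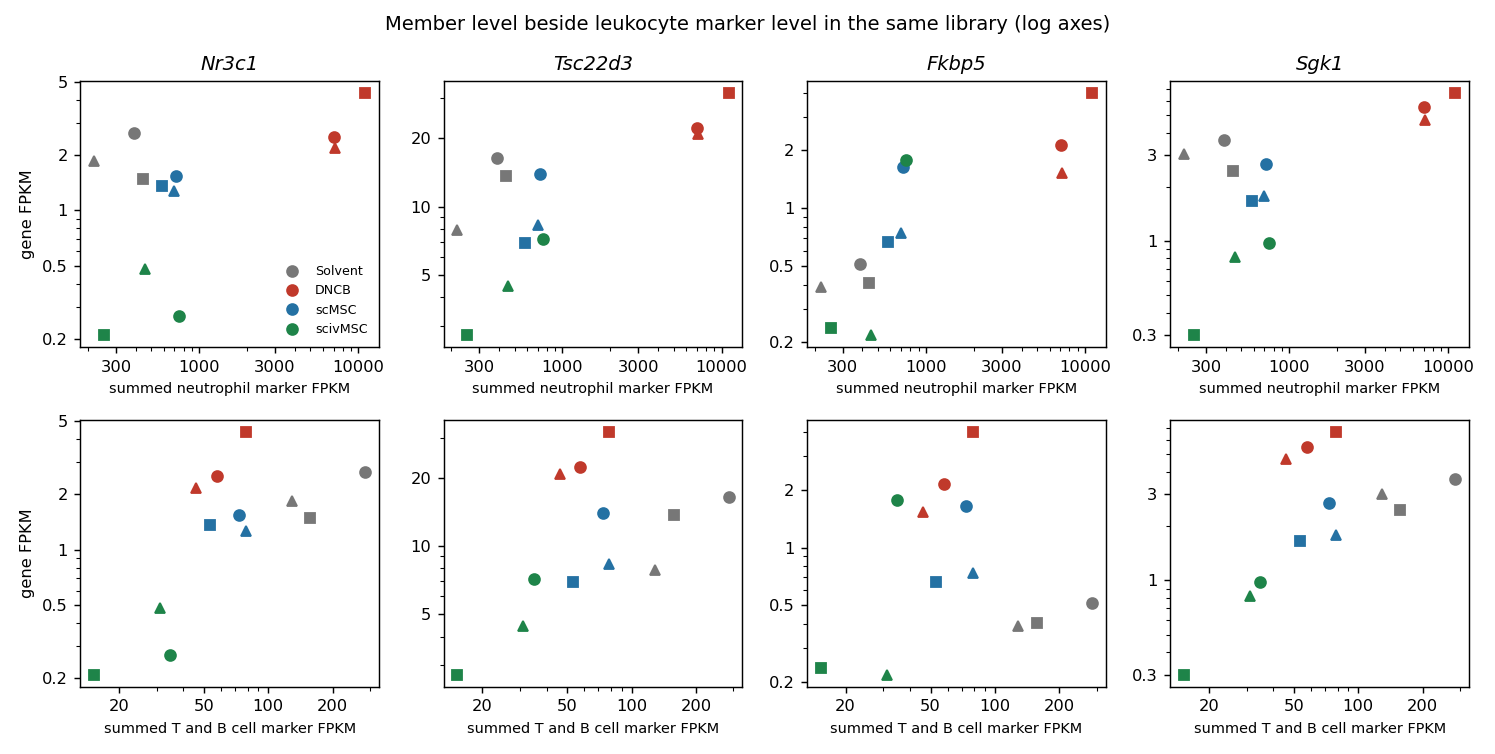
Level of Nr3c1, Tsc22d3, Fkbp5 and Sgk1 in FPKM beside the summed FPKM of the neutrophil markers (upper row) and of the T and B cell markers (lower row) in the same library, all axes log; colours give the group and shapes the replicate number (circle 1, square 2, triangle 3). The 3 DNCB libraries stand apart at neutrophil sums of 7040 to 11100 FPKM, and the scivMSC libraries lie at the low end for Nr3c1 and Sgk1.

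Among the genes that carry hormone signalling (receptor chaperones, hormone-converting enzymes and coregulators), 13 of 20 were tested. In DNCB against Solvent 1 fell and 0 rose, with a median of -0.84. The gene that fell was Hsp90aa1, the chaperone that holds the receptor ready for hormone, with 6.16, 10.3 and 8.58 FPKM in Solvent and 4.25, 4.66 and 3.34 FPKM in DNCB (-1.02 ± 0.31, adjusted p = 0.0254). Its close copies in the genome leave its count uncertain. Under TMM scaling 7 of the 13 fell, as did 635 of the 5527 tested genes. In scivMSC against DNCB 8 of the 13 were called lower with libraries scaled by total counts, beside 62.0% of all tested genes, but under TMM scaling 3 were higher and 1, Ep300, lower.

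Ep300 encodes a histone acetyltransferase recruited by the receptor, and it fell in scivMSC against DNCB under both scalings (-2.60 ± 0.39, adjusted p = 3.74e-05, and -1.07, adjusted p = 0.000606). Hsd11b1, the enzyme that regenerates active corticosterone inside cells, held 1.26, 1.45 and 1.19 FPKM in DNCB, above its Solvent levels of 0.72, 0.738 and 0.554 FPKM. That rise was not called, and Hsd11b1 reached 1 FPKM only in DNCB libraries. It thus passed the filter through the group in which it was highest, which favours a fall from DNCB. Hsd11b1 fell against DNCB in scMSC, to 0.517, 0.338 and 0.524 FPKM (-1.50 ± 0.40, adjusted p = 0.0109). It also fell in scivMSC, to 0.313, 0.183 and 0.208 FPKM (-2.45 ± 0.42, adjusted p = 0.000114). Neither fall reached 2-fold under TMM scaling (-0.83 and -0.85).

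Of 26 further genes known to be induced by glucocorticoids, 17 were tested, and 8 rose and 2 fell in DNCB against Solvent, with a median of 0.88 against 0.06 for all tested genes, of which 15.6% rose and 4.87% fell. The largest rises were those of Il1r2, the decoy receptor of interleukin 1, and Anxa1, the mediator annexin A1. Il1r2 held 0.472, 0.539 and 0.382 FPKM in Solvent and 9.94, 21.3 and 14.7 FPKM in DNCB (5.02 ± 0.55, adjusted p = 8.64e-06). Anxa1 held 4.69, 5.54 and 3.11 FPKM in Solvent and 82.9, 121 and 87.3 FPKM in DNCB (4.45 ± 0.38, adjusted p = 7.47e-07). Both are also known as abundant transcripts of neutrophils, whose markers rose in the same libraries. The part of cell composition in their change, and in the changes of the other genes of the list, was not tested.

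The genes of this list that fell in DNCB were Sesn1, a stress-responsive inhibitor of mTORC1 (-1.27 ± 0.39, adjusted p = 0.0275), and Il7r, the interleukin 7 receptor of lymphocytes (-1.10 ± 0.36, adjusted p = 0.0392). Il7r held 8.28, 6.62 and 6.36 FPKM in Solvent and 3.08, 4.26 and 2.52 FPKM in DNCB. Against DNCB, 12 of the 17 were called lower in scMSC and 15 in scivMSC, beside 24.9% and 62.0% of all tested genes. The list's medians were -1.36 and -2.58, beside -0.63 and -1.53 over all tested genes. Under TMM scaling 7 were lower and 1 higher in scMSC, and 9 were lower in scivMSC. Of all 5527 tested genes, 681 were then lower and 483 higher in scMSC, and 1043 lower and 1137 higher in scivMSC. In scivMSC the largest falls were those of Rgs2, a regulator of G protein signalling (-4.07 ± 0.47, adjusted p = 6.75e-06), and Anxa1 (-3.98 ± 0.38, adjusted p = 2.57e-06).

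**Figure D4:**
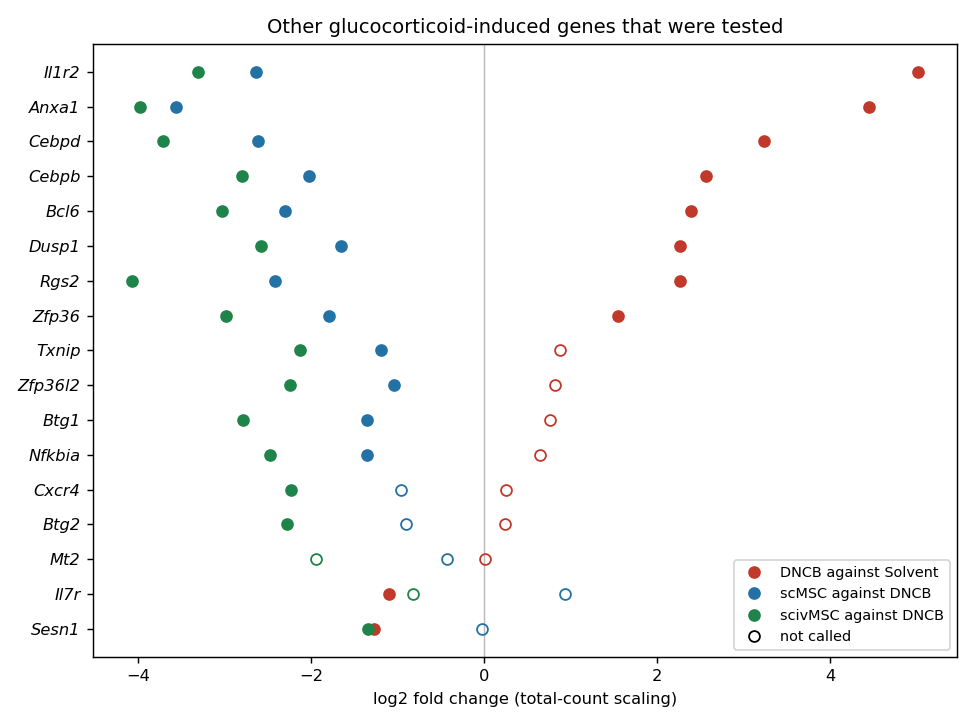
Log2 fold change of the 17 tested genes of the wider glucocorticoid-induced list, with libraries scaled by total counts, for DNCB against Solvent (red), scMSC against DNCB (blue) and scivMSC against DNCB (green); filled points were called. Red points run from 5.02 for Il1r2 down to -1.27 for Sesn1, with 8 called higher and 2 called lower.

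Of the 26 induced genes 9 were below the filter. Pdk4 and Zbtb16, which are strong targets in other tissues, were among them, with Pdk4 at 0 to 0.286 FPKM and Zbtb16 at 0.0232 to 0.519 FPKM over the 12 libraries. Among the 18 genes known to be repressed by glucocorticoids only 4 were tested. Of these, Mmp9 (3.92 ± 0.41, adjusted p = 6.27e-06) and Il1b (2.64 ± 0.40, adjusted p = 0.000206), a protease and a cytokine of myeloid cells, rose in DNCB. Ccl5, a chemokine of T and NK cells, fell (-1.22 ± 0.39, adjusted p = 0.0346). Mmp9 and Il1b fell against DNCB in scMSC (-3.36 and -2.28) and in scivMSC (-4.25 and -3.96). In these groups 2 and 3 of the 4 genes were called lower, beside 24.9% and 62.0% of all tested genes. Under TMM scaling 2 were lower in scMSC, and 2 were lower and 1 higher in scivMSC. The shares of all tested genes called in either direction were then 21.1% and 39.4%.

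Of the other 19 circadian clock genes, 3 were tested, and 1 of these was called in DNCB against Solvent. It was Csnk1e, a kinase of the PER proteins, which rose by 1.45 ± 0.44 (adjusted p = 0.0273) and then fell against DNCB in scMSC (-1.64 ± 0.45, adjusted p = 0.0118) and scivMSC (-2.91 ± 0.47, adjusted p = 7.32e-05). Under TMM scaling 0 of the 3 were called in scMSC against DNCB. In scivMSC against DNCB 2 of the 3 were then called lower, beside 39.4% of all tested genes in either direction. Cry1, a repressor of the clock, fell in scivMSC against DNCB (-2.78 ± 0.51, adjusted p = 0.000225). The other 16 were below the filter, and in the fit without one their log2 fold changes for DNCB against Solvent were positive in 4 and negative in 12, with 1 called. Over all 25247 genes of that fit the median was -0.26, and 1180 were called. Nr1d2, a repressor driven by the clock, had a value of -1.48 ± 0.54 (adjusted p = 0.134), at 0.713, 0.652 and 0.704 FPKM in Solvent and 0.156, 0.325 and 0.258 FPKM in DNCB. The called gene among these 16 was Per2, the paralogue of Per1. Nr1d2 and Per2 were singled out after their values were seen. Per2 held 0.162, 0.119 and 0.11 FPKM in Solvent and 1.05, 1.11 and 0.923 FPKM in DNCB, with no overlap. Its level was 0.124, 0.165 and 0.22 FPKM in scMSC and 0.366, 0.0115 and 0 FPKM in scivMSC. In the fit without a filter Per2 was called higher in DNCB (2.96 ± 0.81, adjusted p = 0.0196) and lower in scMSC (-2.60 ± 0.80, adjusted p = 0.0452) and scivMSC (-3.02 ± 0.81, adjusted p = 0.00438) than in DNCB. The medians of all genes in that fit were -0.33 for scMSC and -1.26 for scivMSC against DNCB.

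Among 18 genes of mTORC1 and stress signalling, the setting of Ddit4 and Sgk1, 6 were tested. Sesn2, an inhibitor of mTORC1 like Ddit4, rose in DNCB from 0.576, 0.708 and 0.415 FPKM to 3.58, 4.61 and 2.63 FPKM (2.67 ± 0.55, adjusted p = 0.00218), whereas Ddit4 was not called there. The DNCB libraries alone were enough for Sesn2 to pass the filter, and no Solvent library reached 1 FPKM. This favours a rise of Sesn2 in DNCB and a fall from it. Foxo3 rose (1.07 ± 0.32, adjusted p = 0.024) and Foxo1 fell (-1.64 ± 0.51, adjusted p = 0.0291), both of them transcription factors that SGK1 and AKT hold inactive. Against DNCB, 2 of the 6 were called lower in scMSC, Sesn2 (-2.61 ± 0.55, adjusted p = 0.0026) and the hypoxia factor Hif1a (-1.66 ± 0.45, adjusted p = 0.0117). The share of all tested genes called lower there was 24.9%, and under TMM scaling 1 of the 6 was lower and 1 higher. In scivMSC 5 of the 6 were called lower, beside 62.0% of all tested genes and with a median of -1.59 against -1.53, and under TMM scaling 2 lower and 1 higher.

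Replicate 1 of the scivMSC group differed from the other two in several of these genes. Its Fkbp5 was 1.78 FPKM against 0.237 and 0.218, its Per1 1.16 FPKM against 0.195 and 0.211, and its Klf9 0.243 FPKM against 0.0552 and 0.0411. Its Nr3c1, at 0.267 FPKM, lay between theirs. This library also had the most counts outside haemoglobin of its group, 8.17e6 against 5.84e6 and 6.4e6, and the highest neutrophil sum, 752 FPKM against 252 and 455 FPKM. In CPM outside haemoglobin its Fkbp5 was 119, against 21.6 and 18.6 in the other scivMSC libraries and 122, 186 and 89.3 in the DNCB libraries. In scMSC, replicate 1 was likewise the highest of its group for each of the 7 genes. The part of depth and of cell composition in these differences was not tested.

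The tested genes whose profile over the 12 libraries was closest to each of the 7 were found from the root mean square difference of centred log2(FPKM + 1) values. They were Anp32a and Sp3 for Nr3c1 (0.12 and 0.13), Vav1 and Zfp36l2 for Tsc22d3 (0.19 for each) and Pik3r5 and Ogt for Sgk1 (0.13 and 0.14). They were Hpcal1 and Tbc1d8 for Fkbp5 (0.24 and 0.26), Rab9 and Ugdh for Per1 (0.16 for each) and Sdf2l1 and Prrc2b for Ddit4 (0.18 and 0.28). The closest pair within the 7 was Nr3c1 and Sgk1, at 0.23, whereas Ddit4 was no closer than 0.48 to any other tested gene of the 7. These differences are not scaled to the spread of each gene about its own mean. On the same scale that spread was 0.61 for Nr3c1 and Fkbp5, 0.88 for Tsc22d3, 0.74 for Sgk1, 0.33 for Per1 and 0.56 for Ddit4.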

How the data were processed

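Blood RNA was sequenced by the study in 12 libraries, and groups were taken from the sample titles. The authors deposited 1 table of 25247 genes with an estimated count and an FPKM value per library, as whole numbers and as fragments per kilobase scaled to library size, haemoglobin included. Every value column was mapped to a sample, so the number left unused was 0. The submitters' processing notes name Bowtie 0.12.2, HISAT2 2.0, StringTie 1.3.0 and the build mm8, without roles, and whether reads were assigned by strand is not given in the sources used here. The coordinates of the deposited table overlapped the GRCm38 gene of the same symbol for 99.9% of 21469 genes matched in RefSeq, the 7 genes included, so printed coordinates are those of the table and match GRCm38. Low deposited counts pile up at 4, 8 and 12 (29.0%, 16.0% and 9.75% of counts from 1 to 12), so a fragment may be worth about 4 counts, and the counts were treated as estimated.

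The counts were fitted with edgeR 4.0.16 in R 4.3.3 (quasi-likelihood test, 4 group means, all 12 libraries, scaled by total counts, since the FPKM values use that scale). Genes at 1 FPKM or above in at least 3 libraries were tested, and called at a Benjamini-Hochberg adjusted p under 0.05 with a fold over 2. Standard errors of log2 fold changes came from the fitted change and its F statistic. The study itself compared groups by analysis of variance and a fold over 2. Alternatives were TMM scaling, haemoglobin genes left out, DESeq2 1.42.0, limma 3.58.1 on log2(FPKM + 1) and log2(FPKM + 0.1), other filters, fits of 2 groups, a replicate block, adjusted p with no fold threshold and each library left out. Counts divided by 4 were added after the data were seen. The contrast tests of edgeR, limma and DESeq2 were tried on simulated data with changes planted in the DNCB group. The F test over the 4 groups and the other settings were not. The labels do not describe sampling beyond the titles, so p-values measure only the spread between these samples, which may be technical.

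The 7 genes, the 5 pathway lists and the 8 cell type lists were chosen with earlier results of these data known. Named pathway genes are, per list and contrast, up to 2 called genes in each direction with the largest change. The 2 tested genes with the highest mean FPKM were eligible from each cell type list, and the 2 with the closest profile for each of the 7 genes that was tested. Genes singled out after their values were seen (Pdk4, Zbtb16, Per2, Nr1d2) are not under that rule. Bmal1 is another name of Arntl, which was analysed under that symbol and counted once. Csf2, Il12b, Ddit4l, Klra8 and Ahsp were not analysed here.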

Additional observations from a re-analysis of the deposited data

Results flagged for a closer look

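Between the 2 routes of MSC injection, 4 of the 6 tested genes differed by a test of the difference itself, edgeR's contrast of scivMSC against scMSC, which equals the difference between their changes from DNCB. The log2 difference was -2.10 for Nr3c1 (adjusted p = 0.00815), -1.52 for Sgk1 (adjusted p = 0.0147), -1.44 for Ddit4 (adjusted p = 0.0322) and -1.02 for Tsc22d3 (adjusted p = 0.0488), beside a median of -0.87 over all tested genes, of which 30.4% were called lower in this contrast. Tsc22d3 kept the call in 3 of 12 fits with a library left out, and limma on log2(FPKM + 1) and the fit of 2 groups called 0 of the 4. Under TMM scaling Nr3c1 was the one still called (-1.14, adjusted p = 0.0128). Groups of 3 libraries are too small for the test of single outlying samples.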

How the results depend on the processing

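The 6 tested genes kept their calls unevenly. The F test over 4 groups called 4, and 1 with a mean FPKM of at least 5, where only Tsc22d3 was tested, and 4 to 6 with a library left out. Over all genes it called 3997 of 5527, 760 of 1095 at mean FPKM 5, and 3579 to 4323 with a library left out. For DNCB against Solvent 1 gene was called, 0 at mean FPKM 5, 2 with the replicate block and 0 to 1 with a library left out. For scMSC against DNCB 3 were called, 1 under TMM, without haemoglobin genes, in DESeq2 and at mean FPKM 5, and 0 to 4 with a library left out. For scivMSC against DNCB 4 were called, 2 under TMM and DESeq2, 1 at mean FPKM 5 and 3 to 6 with a library left out. For scMSC against Solvent 0 were called, 1 under TMM, in DESeq2 and in the fit of 2 groups, and 0 to 0 with a library left out. For scivMSC against Solvent 4 were called, 2 under TMM and DESeq2, 1 at mean FPKM 5 and 3 to 5 with a library left out. For scivMSC against scMSC 4 were called, 1 under TMM and DESeq2, 0 in limma on log2(FPKM + 1), at mean FPKM 5 and in the fit of 2 groups, and 1 to 6 with a library left out.

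Over all genes the calls were 1133 for DNCB against Solvent (309 at mean FPKM 5, 788 to 1424 with a library left out), 1445 for scMSC against DNCB (337, 813 to 1804) and 3506 for scivMSC against DNCB (532, 3000 to 3959, with 2180 under TMM, 2232 in DESeq2, 2005 in limma on log2(FPKM + 1) and 5952 without a filter). They were 3415 for scivMSC against Solvent (485, 2830 to 3848, with 1981, 2028, 1767 and 7373 in the same order) and 1701 for scivMSC against scMSC (174, 512 to 2944, with 994, 1091 and 335, and 4 in the fit of 2 groups). For scMSC against Solvent 36 were called, with 55 at mean FPKM 5, 4 to 824 with a library left out, 470 under TMM, 556 in DESeq2, 211 and 56 in limma with pseudocounts of 1 and 0.1, 396 without haemoglobin genes, 104 without a filter, 1149 in the fit of 2 groups, 11 with the replicate block and 62 for counts divided by 4. TMM turned the split of higher and lower calls from 864 and 269 to 888 and 635 for DNCB against Solvent, from 70 and 1375 to 483 and 681 for scMSC against DNCB, and from 79 and 3427 to 1137 and 1043 for scivMSC against DNCB. It was 403 and 67 in place of 18 and 18 for scMSC against Solvent, 1240 and 741 in place of 143 and 3272 for scivMSC against Solvent, and 722 and 272 in place of 19 and 1682 for scivMSC against scMSC.

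Signs of single genes turned in 31 cases. Under TMM and DESeq2 these were, against Solvent, Nr3c1 in scMSC (0.03 and 0.03), Tsc22d3 in scMSC (0.15 and 0.15) and scivMSC (0.0031 and 0.03), Per1 in scivMSC (0.94 and 0.95) and Ddit4 in scivMSC (0.09 and 0.11). Against DNCB in scivMSC they were Per1 (0.14 and 0.10) and Ddit4 (0.66 and 0.66), and against scMSC in scivMSC Fkbp5 (0.22 and 0.22) and Per1 (0.32 and 0.33). With a library left out, values ran from -0.94 (without scivMSC replicate 1) to 1.20 for Fkbp5 and from -1.64 to 0.12 for Per1 in scivMSC against Solvent, where Per1 also turned without scivMSC replicate 3 (0.10) and without haemoglobin genes (0.00044). In scivMSC against scMSC they ran from -2.14 to 0.10 for Fkbp5 and from -1.74 to 0.14 for Per1, both positive without scMSC replicate 1, and Fkbp5 was 0.0012 without scivMSC replicate 3 and Per1 0.01 without scivMSC replicate 2. In scMSC against Solvent they ran from -0.42 to 0.32 for Per1 and from -0.52 to 0.43 for Ddit4, and in scMSC against DNCB from -0.18 to 0.88 for Ddit4, all 3 negative without scMSC replicate 1. Per1 in scMSC against Solvent was also negative without Solvent replicate 3 (-0.10) and with the replicate block (-0.0042). The cause was not tested. Same-numbered libraries of different groups did not deviate together (correlations from -0.13 to 0.13 over 18 pairs, 1 over 0.1), so the numbers were not taken as a pairing. The replicate block added calls for Tsc22d3 in DNCB against Solvent and Per1 in scivMSC against DNCB. Klf9 had the lowest counts of the 7 genes, 12 to 123 per library.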
